A study of Homo sapiens with 12 samples.

Results

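MHC class I molecules show peptides from inside the cell to CD8 T cells. A polymorphic heavy chain, such as HLA-B or HLA-C, pairs with the light chain B2M in the endoplasmic reticulum, the TAP1-TAP2 transporter brings in the peptides, and tapasin (TAPBP) holds the empty molecule at the transporter until it is loaded. NLRC5 is the transactivator of these genes, acting through factors that sit on the X and Y boxes of their promoters, and interferon adds to their transcription through interferon-stimulated response elements (ISRE). CD1D is a relative that also pairs with B2M but presents lipids to natural killer T cells. EZH2, the methyltransferase of PRC2, places the repressive methyl mark on histone H3, and low class I genes have been tied to PRC2 in some tumors. The 9 genes HLA-B, HLA-C, HLA-E, B2M, TAP1, TAP2, TAPBP, NLRC5 and CD1D were chosen by name, with earlier results of these data known. All 9 were among the 14438 genes counted and among the 14263 tested.

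The RNA-Seq counts cover 4 derivatives of the human embryonic kidney line HEK293T, with 3 replicates each. Each line had received 1 form of EZH2 by lentivirus. The control received the wild type (EZH2 WT), a pair of lines received a gain-of-function (GOF) mutant, EZH2 Y641F in one and EZH2 A677G in the other, and the last received the loss-of-function (LOF) double mutant EZH2 H689A/F667I. The lines are called WT, Y641F, A677G and LOF here. All were selected with blasticidin, a step meant to leave monoclonal populations, and with 1 line per form a mutation and its line cannot be told apart. The study describes no removal of the cells' own EZH2, and the counts do not separate it from the introduced copy. In counts scaled to library size (CPM), EZH2 itself stood at 158 ± 4.32 (SD, n = 3) in WT, 218 ± 9.61 in Y641F, 173 ± 8.57 in A677G and 208 ± 2.03 in LOF. The libraries held 32137700 to 44562413 counts. Replicate 1 of Y641F stood apart from its group, with a score of 5.60 on the first principal component (33.7% of the variance) against 17.7 and 17.1 for the other replicates of that line, so the counts of called genes that it changes are given with and without it. Of the HEK293T markers reported here, EYA1, LHX1, VIM, KRT8 and KRT18 all were counted in every sample, whereas PAX2 was listed at 0 in the A677G samples. VIM fell by 0.12 on the log2 scale in Y641F against WT (edgeR quasi-likelihood test, adjusted p = 0.0187) and LHX1 fell by 0.53 in A677G (edgeR adjusted p = 0.0263), and the part of such shifts in the results was not tested.

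Those of these genes with a promoter window here carry some of the letters that the class I regulators are known to read. Stretches holding such letters are shown because the genes that fell in the GOF lines differ in which of them were found. They come from the RefSeq windows of 250 bases before and 50 bases after each start (GRCh38.p14), of which 7 of the 9 genes had 1 or more, HLA-E and NLRC5 having none in the table used here. Capitals mark the X2 box core (TGACG) and the Y box (ATTGG, or CCAAT where it lies on the other strand) in the 30 bases of the HLA-B promoter at chr6:31357256-31357285 and of the HLA-C promoter at chr6:31272168-31272197, both on the minus strand.
HLA-B: TGACGcgtccccacttcccactcccATTGG
HLA-C: TGACGcgtccCCAATtcccactcccATTGG

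In the next 4 stretches capitals mark the ISRE, searched on both strands as GAAA, any 2 bases and GAAA. They lie at chr15:44711369-44711392 (plus strand) for B2M, chr6:32853819-32853842 (minus strand) for TAP1, chr6:32838778-32838801 (minus strand) for TAP2 and chr6:33314079-33314102 (minus strand) for TAPBP. B2M, TAP1 and TAPBP hold 2 overlapping matches each, those of TAP1 on the opposite strand.
B2M: ctaaGAAAAGGAAACTGAAAacgg
TAP1: ccgcTTTCGATTTCGCTTTCccct
TAP2: aagcGAAAGCGAAAgctgcccgag
TAPBP: ggagGAAAGTGAAAGTGAAAggag

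The HLA-B and HLA-C stretches share 29 of 30 bases. Of all 35116 promoter windows, 34.6% hold the Y box letters, 24.6% the X2 box core and 3.57% the ISRE letters, so that the short motifs are common and the ISRE is not. ISRE letters were found in the windows of B2M, TAP1, TAP2 and TAPBP, and not in those of HLA-B, HLA-C or CD1D. Only these exact letters were searched, so an ISRE that departs from them would be missed, and the absence of a match does not show its absence. The TGACG letters were found for HLA-B, HLA-C, B2M and TAP2, and the Y box letters for HLA-B, HLA-C, B2M, TAP1 and CD1D. B2M, which was called in no comparison, thus holds both, with TGACG beginning 75 and ATTGG 49 bases before its start. That stretch is not shown. A match describes the reference letters in these windows, and the alleles of HEK293T may differ from it.

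HLA-B, a classical heavy chain (ENSG00000234745, chr6:31353872-31367067, minus strand), was lower in both GOF lines than in WT. It stood at 68.6, 67.5 and 62.6 CPM in the WT samples and at 66.8, 63.4 and 69.1 CPM in the LOF samples. The values were 42.3, 40.6 and 39.8 CPM in Y641F and 46.0, 42.1 and 45.4 CPM in A677G. Every GOF sample was thus below every WT and LOF sample, by a gap larger than the spread within any line. HLA-B fell by 0.70 on the log2 scale in Y641F (SE 0.0512, edgeR's quasi-likelihood test, adjusted over all genes by Benjamini-Hochberg, adjusted p = 3.25e-12) and by 0.58 in A677G (SE 0.0510, edgeR adjusted p = 2.73e-10), against WT. On the linear scale it decreased by 38.3% and decreased by 32.9%. HLA-B overlaps 2 annotated genes on its own strand and 2 on the other. Between LOF and WT the difference was 0.00 with a 95% interval from -0.10 to 0.10.

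HLA-C, the next classical heavy chain on the same arm (ENSG00000204525, chr6:31268749-31272130, minus strand), was the more abundant but moved less. It stood at 147, 155 and 141 CPM in WT and 158, 147 and 145 CPM in LOF. In Y641F the samples stood at 132, 124 and 112 CPM, and in A677G at 133, 125 and 131 CPM. Again no GOF sample reached the lowest WT or LOF sample, although the gap was narrow. HLA-C fell by 0.27 on the log2 scale in Y641F (SE 0.0467, edgeR adjusted p = 9.75e-05) and by 0.19 in A677G (SE 0.0466, edgeR adjusted p = 0.00627). Without replicate 2 of WT the latter was no longer called (edgeR adjusted p = 0.0818), nor without replicate 2 of A677G (edgeR adjusted p = 0.0594).

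The counts of HLA-B relative to HLA-C, which need no scaling between libraries, were 0.448 ± 0.0160 (SD, n = 3) in WT and 0.444 ± 0.0286 in LOF. They were 0.335 ± 0.0182 in Y641F and 0.343 ± 0.00574 in A677G. Within the same libraries HLA-B was thus lower relative to HLA-C in both GOF lines, and no GOF sample reached the lowest WT or LOF sample. HLA-B and HLA-C are related and polymorphic genes. Reads from parts that they share may have been split between them against reference transcripts that are not the alleles of this line. How far that bears on the ratios was not tested.

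HLA-E, a non-classical heavy chain that natural killer cells read through NKG2A (ENSG00000204592, chr6:30489509-30494194, plus strand), moved less than HLA-B. Its values were 46.7, 47.3 and 44.7 CPM in WT, 47.8, 38.7 and 43.1 in Y641F, 43.2, 42.1 and 42.2 in A677G and 52.0, 47.2 and 47.8 in LOF. The A677G samples were all below the WT samples, whereas the Y641F samples overlapped with them. Against WT the log2 differences of -0.10 in Y641F (95% interval -0.22 to 0.02) and -0.12 in A677G (95% interval -0.24 to -0.00403) did not pass the test (edgeR adjusted p = 0.379 and 0.224). Without replicate 1 of Y641F, its highest sample, the difference was -0.18 and passed (edgeR adjusted p = 0.0475).

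B2M, the light chain shared by all these molecules and by CD1D (ENSG00000166710, chr15:44711358-44718851, plus strand), was not called in any of the 7 comparisons. It stood at 126, 132 and 136 CPM in WT, at 134, 136 and 132 CPM in Y641F, at 131, 125 and 126 CPM in A677G and at 145, 133 and 134 CPM in LOF. The WT range overlapped with that of each mutant line. The log2 difference from WT was 0.03 in Y641F (95% interval -0.05 to 0.12) and -0.04 in A677G (95% interval -0.12 to 0.04), so that a decrease of the size seen for HLA-B lies outside both intervals. The counts of HLA-B per B2M were 0.506 ± 0.0440 in WT, 0.304 ± 0.00880 in Y641F, 0.349 ± 0.0131 in A677G and 0.484 ± 0.0279 in LOF.

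**Figure D1:**
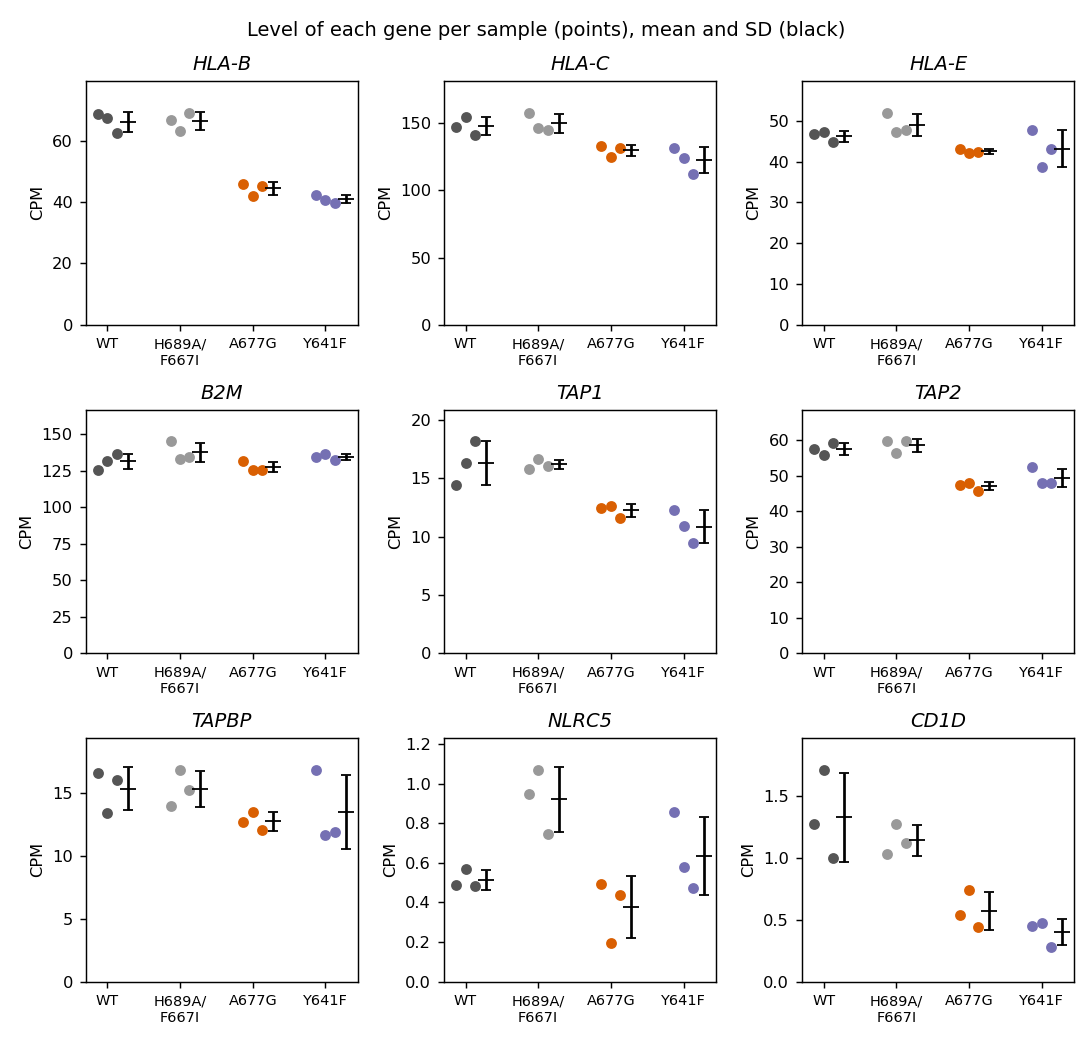
Level of each of the 9 genes in every sample, in CPM scaled by TMM (vertical axis from 0), by EZH2 line; points are the 3 replicates and the black bar the mean with its SD. HLA-B, HLA-C, TAP1, TAP2 and CD1D are lower in every A677G and Y641F sample than in any WT or H689A/F667I sample, while the B2M samples of the lines lie at 125 to 145 CPM.

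TAP1, the first subunit of the peptide transporter (ENSG00000168394, chr6:32845209-32853816, minus strand), was lower in both GOF lines. It stood at 14.4, 16.3 and 18.2 CPM in WT and 15.8, 16.6 and 16.1 CPM in LOF. The Y641F samples stood at 12.2, 10.9 and 9.46 CPM and the A677G samples at 12.5, 12.7 and 11.6 CPM. The highest GOF sample lay below the lowest WT sample, which spread widely. TAP1 fell by 0.58 on the log2 scale in Y641F (SE 0.0945, edgeR adjusted p = 3.67e-05) and by 0.41 in A677G (SE 0.0935, edgeR adjusted p = 0.00269). TAP1 overlaps PSMB9 and PSMB8-AS1 on the other strand. The libraries were stranded, and whether the counting used strand is not given in the sources used here.

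TAP2, the partner subunit (ENSG00000204267, chr6:32821833-32838739, minus strand), fell by a smaller amount. Its values were 57.5, 55.9 and 59.2 CPM in WT, 52.3, 47.9 and 48.1 in Y641F, 47.5, 47.8 and 45.8 in A677G and 59.7, 56.5 and 59.7 in LOF. All 6 GOF samples were below all others. TAP2 fell by 0.22 on the log2 scale in Y641F (SE 0.0491, edgeR adjusted p = 0.00282), and fell by 0.29 in A677G (SE 0.0493, edgeR adjusted p = 7.54e-05). TAP1 counts per TAP2 count were 0.283 ± 0.0290 in WT, 0.219 ± 0.0197 in Y641F, 0.260 ± 0.00624 in A677G and 0.276 ± 0.0160 in LOF. TAP2 overlaps 1 annotated gene without a symbol on its own strand, and reads from shared exons cannot be told apart.

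TAPBP, the tapasin gene (ENSG00000231925, chr6:33299694-33314284, minus strand), had the same sign with more spread. The WT samples stood at 16.6, 13.4 and 16.0 CPM and the LOF samples at 13.9, 16.8 and 15.2 CPM. The A677G samples stood at 12.7, 13.5 and 12.04 CPM, and those of Y641F at 16.9, 11.7 and 11.9 CPM. Replicate 1 of Y641F was thus the highest of all 12 samples, while its other replicates were the lowest. With it, the log2 difference from WT was -0.18 (SE 0.107, edgeR adjusted p = 0.368), and without it -0.38 (SE 0.0997, edgeR adjusted p = 0.0102). In A677G the difference from WT was -0.27 (SE 0.108, edgeR adjusted p = 0.134). That difference was called, at the same size, when replicate 1 of Y641F was left out of the shared fit (SE 0.0880, edgeR adjusted p = 0.0460). It was also called with only the A677G and WT samples in the fit. Against LOF, TAPBP was not called with all samples and was called without that replicate, at -0.38 in Y641F and -0.27 in A677G (edgeR adjusted p = 0.00889 and 0.0398).

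NLRC5, the class I transactivator (ENSG00000140853, chr16:56989485-57083531, plus strand), was near the limit of detection with 8 to 42 counts per sample. It stood at 0.487, 0.569 and 0.483 CPM in WT, at 0.856, 0.578 and 0.473 CPM in Y641F, at 0.494, 0.197 and 0.439 CPM in A677G and at 0.947, 1.07 and 0.745 CPM in LOF. The LOF samples were all above the WT samples, where 7.89% of all genes did the same, and both GOF lines overlapped with WT. Against WT the log2 difference was 0.31 in Y641F (95% interval -0.44 to 1.05), -0.44 in A677G (95% interval -1.25 to 0.36) and 0.84 in LOF (95% interval 0.12 to 1.57, edgeR adjusted p = 0.479). In A677G a decrease of the size seen there for HLA-B or TAP1 lies within the interval and was not detectable at this depth. In Y641F, with all samples, the interval ends above the decreases of HLA-B and TAP1 in that line. Without replicate 1 of Y641F, its highest sample, the difference was 0.03 (95% interval -0.82 to 0.87), and decreases of those sizes lie within the interval. From LOF to A677G, NLRC5 fell by 1.29 on the log2 scale (SE 0.368, edgeR adjusted p = 0.0176), a call that was lost without replicate 2 of A677G or without replicate 1 or 2 of LOF.

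CD1D, the lipid-presenting molecule (ENSG00000158473, chr1:158178030-158186427, plus strand), lies outside the MHC and had the largest fitted decrease of the 9 genes against WT in both GOF lines, at a low level of 12 to 66 counts per sample. It stood at 1.27, 1.71 and 0.996 CPM in WT and 1.03, 1.27 and 1.12 CPM in LOF. In Y641F it stood at 0.452, 0.473 and 0.284 CPM and in A677G at 0.538, 0.737 and 0.439 CPM. No GOF sample reached the lowest WT or LOF sample. CD1D fell by 1.72 on the log2 scale in Y641F (SE 0.332, edgeR adjusted p = 4.55e-04) and by 1.21 in A677G (SE 0.315, edgeR adjusted p = 0.00967). On the linear scale it decreased by 69.7% and decreased by 56.8%, with 95% intervals of -2.40 to -1.05 and -1.85 to -0.57 on the log2 scale. The call in A677G was lost without replicate 2 of WT (edgeR adjusted p = 0.108) or replicate 3 of A677G (edgeR adjusted p = 0.0607). CD1D is on a list of target genes that the study drew up partly from these samples, and its decrease is not independent evidence for that list.

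Across the genes, 5 of 9 were lower in Y641F than in WT, namely HLA-B, HLA-C, TAP1, TAP2 and CD1D, where 5.59% of all genes tested were called lower. The same 5 were lower in A677G than in WT, where 6.48% of all genes were. The 2 comparisons share the WT samples. Because the 9 genes were chosen with earlier results of these data known, such counts beside the shares, here and below, describe them. They are no test of the set. None of the 9 was called higher in any comparison, where 0.0701% (Y641F against A677G) to 5.5% (GOF lines pooled) of all genes were. At such shares this says little about the 9 genes. The median log2 difference of the 9 genes was -0.22 in Y641F and -0.29 in A677G, beside 0.00 over all genes in each. Without replicate 1 of Y641F, 7 of 9 were called lower in Y641F, where 6.61% of all genes were, and 6 of 9 in A677G, where 7.34% were. In bulk RNA, fewer cells with a transcript and less of it per cell cannot be told apart.

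**Figure D2:**
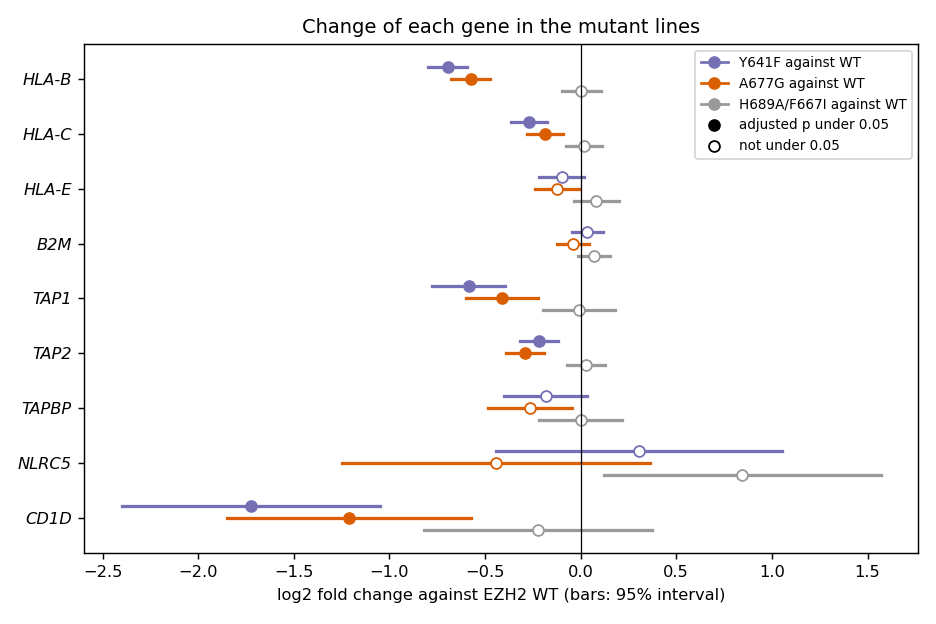
Log2 fold change against WT (horizontal axis) of each of the 9 genes in the 3 mutant lines, with 95% intervals; filled points passed edgeR's quasi-likelihood test at an adjusted p under 0.05. Filled points lie left of 0 for HLA-B, HLA-C, TAP1, TAP2 and CD1D in both GOF lines, and the points of the H689A/F667I line are all open.

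LOF was compared with WT to see whether a loss of activity moved these genes the other way. No gene of the 9 was called, where 0.161% of all genes were called lower and 0.14% higher, so 0 of 9 is near those shares. At an unadjusted p under 0.05 there was 1, NLRC5, and DESeq2, limma voom and edgeR's exact test also called 0. The median log2 difference of the 9 was 0.02. The 95% intervals of HLA-B, HLA-C, HLA-E, B2M, TAP1 and TAP2 lay within 0.20 of 0 on the log2 scale, rounded to 2 decimals. For TAPBP the difference was 0.00 (95% interval -0.22 to 0.22), and for CD1D it was -0.22 (95% interval -0.82 to 0.37).

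The GOF lines were also set against each other. No gene of the 9 was called between Y641F and A677G. Of all genes, 0.014% were called lower and 0.0701% higher in Y641F, so 0 of 9 is near those shares. The count at an unadjusted p under 0.05 was 1, HLA-B, and DESeq2, limma voom and edgeR's exact test called 0. HLA-B was lower in Y641F by a log2 difference of -0.12 (95% interval -0.23 to -0.02, edgeR adjusted p = 0.660). TAP2 had the opposite sign at 0.07 (95% interval -0.03 to 0.17). Its Y641F samples were all above those of A677G, as were those of B2M, where 5.33% of all genes did the same. For CD1D the interval ran from -1.25 to 0.22.

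Against LOF in place of WT, 6 of 9 genes were lower in Y641F, where 6.43% of all genes were called lower, and 7 of 9 in A677G, where 7.66% of all genes were. HLA-B, HLA-C, TAP1, TAP2 and CD1D were again among them, joined by HLA-E in both lines and by NLRC5 in A677G. Without replicate 1 of Y641F the counts were 7 of 9 and 8 of 9, where 7.28% and 8.61% of all genes were called lower. HLA-E was called at -0.18 in Y641F (edgeR adjusted p = 0.0443) and at -0.20 in A677G (edgeR adjusted p = 0.0174), and the first of these held in 2 of 12 fits that left out 1 sample. CD1D was called at -0.99 in A677G (edgeR adjusted p = 0.0413), in 6 of those 12 fits. Every A677G sample was below every LOF sample for all 9 genes, B2M included, where 15.5% of all genes did the same.

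With the 6 GOF samples pooled against the 6 samples of WT and LOF, 7 of 9 genes were called lower, where 10.4% of all genes were. The log2 differences were -0.64 for HLA-B, -0.24 for HLA-C, -0.15 for HLA-E, -0.49 for TAP1, -0.27 for TAP2, -0.23 for TAPBP and -1.36 for CD1D. B2M at -0.04 (95% interval -0.10 to 0.02) and NLRC5 at -0.49 (95% interval -1.02 to 0.04) were not called. For TAPBP (edgeR adjusted p = 0.0368) the call was kept in 4 of 12 fits without 1 sample. The samples did not overlap for 5 of 9 genes, CD1D, HLA-B, HLA-C, TAP1 and TAP2, where every GOF sample was below every other sample for 5.41% of all genes. Against WT alone every sample was below for the same 5 in Y641F, where 11.7% of all genes did so, and for these and HLA-E in A677G, where 14.7% did.

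Ordered by mean level, the lines fell in 2 steps for the genes that were called. For HLA-B, HLA-C, TAP1, TAP2 and CD1D, WT and LOF stood next to each other at the top and the 2 GOF lines at the bottom, and only the step between the pairs passed the test. Y641F was the lowest for HLA-B, HLA-C, TAP1 and CD1D, and A677G the lowest for TAP2. For HLA-E, B2M, TAPBP and NLRC5 no step between neighbours passed it. Per kilobase of annotated transcript, the WT level was highest for B2M at 139 CPM, followed by HLA-C at 95.8, HLA-B at 43.1, HLA-E at 18.2, TAP2 at 10.2, TAP1 at 6.07, TAPBP at 4.45, CD1D at 0.379 and NLRC5 at 0.0757. The genes that fell thus included both abundant and scarce transcripts, and B2M, the most abundant per length, was not among them.

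Few genes around this pathway were called against WT. In Y641F 5.59% of all genes were called lower and 2.09% higher, and in A677G 6.48% and 2.07%. At such shares, 0 or 1 call in a list this small says little about its genes. Of 7 other heavy chains and class I relatives tested, none was called lower against WT in either GOF line by edgeR's quasi-likelihood test, and at an unadjusted p under 0.05 the lower genes came to 1, HLA-F, in each line. EdgeR's exact test called HLA-F lower in Y641F, and DESeq2 and limma voom called 0 lower in either line. FCGRT, the neonatal Fc receptor, which also pairs with B2M, rose by 0.36 on the log2 scale in A677G (SE 0.106, edgeR adjusted p = 0.0242). HLA-F, chosen after its values were seen, had log2 differences from WT of -0.46 in Y641F and -0.37 in A677G (edgeR adjusted p = 0.0812 and 0.185). Against LOF, HLA-F was called lower in both GOF lines. PROCR, also chosen after its values were seen, was called lower in A677G against LOF. In those comparisons 6.43% (Y641F) and 7.66% (A677G) of all genes were called lower.

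The next 3 lists are as small, and the same shares of all genes apply (5.59% lower in Y641F, 6.48% in A677G). Among 12 genes of peptide loading and trimming, ERAP2, an aminopeptidase that trims peptides to class I length, was the 1 called against WT by edgeR's quasi-likelihood test. It stood at 2.17 ± 0.296 CPM in WT, 1.34 ± 0.384 in Y641F, 1.01 ± 0.195 in A677G and 2.38 ± 0.332 in LOF. ERAP2 fell by 1.10 on the log2 scale in A677G against WT (SE 0.248, edgeR adjusted p = 0.00254), and in Y641F the difference was -0.69 (edgeR adjusted p = 0.0718). ERAP2 was called lower in Y641F by edgeR's exact test and limma voom, and limma voom also called NRD1 lower in A677G, where edgeR's log2 difference was -0.11 (adjusted p = 0.104). Of 3 immunoproteasome and PA28 genes tested, PSME1, a PA28 subunit, rose by 0.30 in A677G (SE 0.0609, edgeR adjusted p = 9.27e-04), and none was called in Y641F by edgeR, DESeq2 or limma voom (1 at an unadjusted p under 0.05, PSME1). The 5 constitutive proteasome counterparts had 0 calls against WT by edgeR, DESeq2 or limma voom (1 at an unadjusted p under 0.05, POMP in Y641F), with medians of -0.03 in Y641F and -0.02 in A677G. Against LOF, ERAP2 was called lower in both GOF lines, where 6.43% (Y641F) and 7.66% (A677G) of all genes were. PSME1 was called higher in A677G against LOF, where 2.64% of all genes were.

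Regulators of class I transcription gave few or no calls. Against WT, 5.59% of all genes were called lower and 2.09% higher in Y641F, and 6.48% and 2.07% in A677G. With the GOF lines pooled, 10.4% were lower and 5.5% higher. At such shares, few or no calls in lists of 12 genes or fewer say little about those genes and do not show them unchanged. Of 12 transcription factors tested, among them RFX5, the NF-Y subunits and IRF1, 0 were called in any of the 7 comparisons by edgeR. Against WT the count at an unadjusted p under 0.05 was 0 in Y641F and 1, RFXAP, in A677G, and DESeq2 and limma voom also called 0. Both of these tools called NFYB higher in Y641F than in LOF, where edgeR's log2 difference was 0.18 (adjusted p = 0.0611). Their median log2 difference from WT was -0.01 in Y641F and 0.00 in A677G. Of 10 interferon receptors and signalling genes, 0 were called against WT in either GOF line, with medians of 0.02 and 0.06, by edgeR, DESeq2 or limma voom. At an unadjusted p under 0.05 there were 2 in Y641F, IFNGR2 and JAK1, and 1 in A677G, IFNGR2. The 6 genes of lipid loading and CD1D traffic included AP3B1, an adaptor subunit, which rose by 0.15 in Y641F (SE 0.0391, edgeR adjusted p = 0.0145) and by 0.17 in A677G (SE 0.0391, edgeR adjusted p = 0.00341). Of 4 regulators of class I at the surface, SPPL3, an intramembrane protease, rose by 0.23 in A677G (SE 0.0605, edgeR adjusted p = 0.0101). The 6 NKG2D ligands had 0 calls against WT by edgeR's quasi-likelihood test, DESeq2 or limma voom. At an unadjusted p under 0.05 there was 1, RAET1G in Y641F, which edgeR's exact test called. Against LOF, JAK1 was called lower in both GOF lines, where 6.43% (Y641F) and 7.66% (A677G) of all genes were. IFNAR1 and SPPL3 were called higher in A677G against LOF, where 2.64% of all genes were. JAK1 and IFNAR1 are named after their values were seen.

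**Figure D3:**
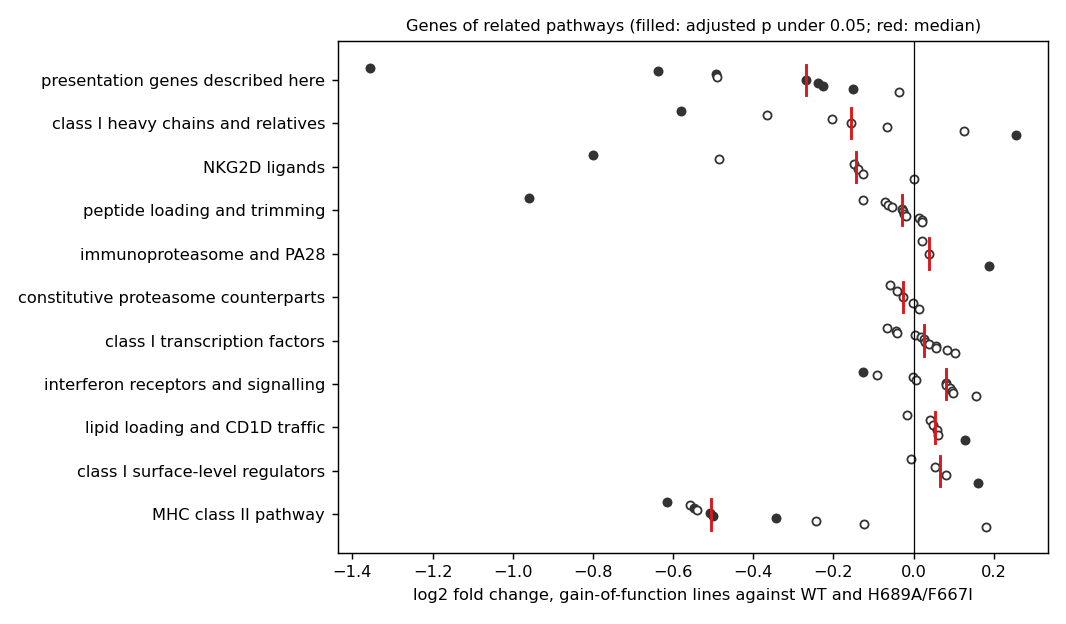
Log2 fold change of the 2 GOF lines against WT and LOF together (horizontal axis) for the genes of each list (rows); 1 point is 1 gene, filled points passed edgeR's test at an adjusted p under 0.05, and the red line is the median of the list. The median is -0.27 for the 9 presentation genes and -0.50 for the 10 class II genes, and it is 0.03 for the transcription factors.

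The MHC class II pathway, which shows peptides from outside the cell to CD4 T cells, had 10 genes tested. In A677G against WT 2 were lower, where 6.48% of all genes were, as HLA-DOA fell by 0.76 (SE 0.171, edgeR adjusted p = 0.00258) and HLA-DMB fell by 0.67 (SE 0.182, edgeR adjusted p = 0.0134), both of which act in peptide exchange. In Y641F against WT 0 were called by edgeR or DESeq2, whereas 2, HLA-DQB1 and HLA-DRB1, were at an unadjusted p under 0.05, and limma voom called both lower. Against LOF, 4 of 10 were lower in Y641F and 5 of 10 in A677G, where 6.43% and 7.66% of all genes were. With the 6 GOF samples against the other 6, 5 of 10 were lower, where 10.4% of all genes were, and the median was -0.50. Of these 5, HLA-DRB1, HLA-DQB1 and HLA-DPA1 are named after their values were seen.

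HLA-B, HLA-C, HLA-E, TAP1, TAP2 and TAPBP lie in the MHC region of chromosome 6, and the other genes of that region served as its background. Of 107 others tested, 1 was lower in Y641F against WT, ITPR3, a calcium release channel, at -0.37 (edgeR adjusted p = 2.62e-04), where 5.59% of all genes were called lower. In A677G 4 were, ITPR3, HLA-DOA, HLA-DMB and MRPS18B, where 6.48% of all genes were. The median over the 107 was -0.01 in each. With the GOF samples pooled, 8 of 107 (7.48%) were lower, a share not above the 10.4% of all genes, and 1 was higher, with a median of -0.01.

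**Figure D4:**
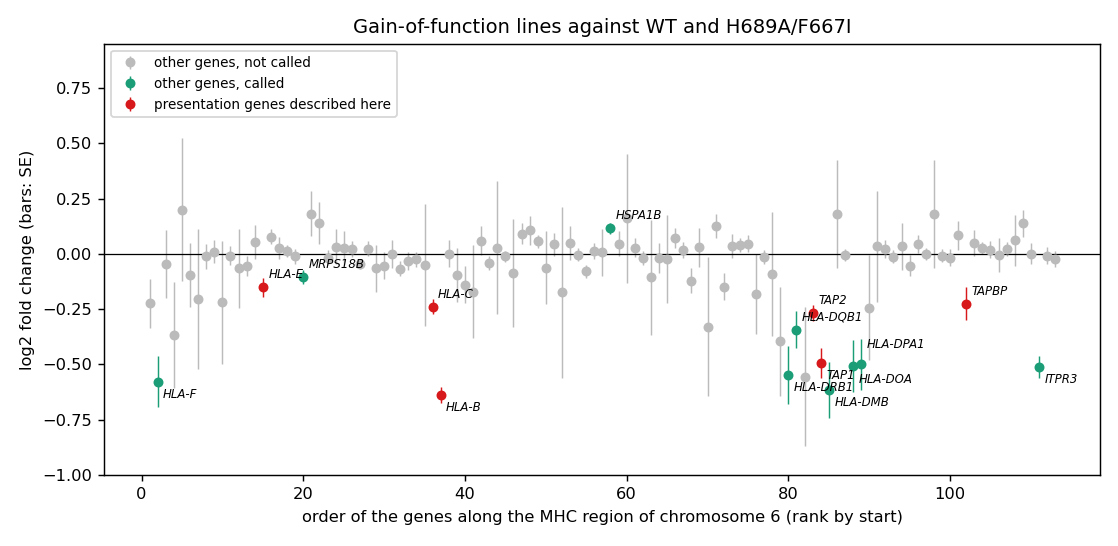
Log2 fold change of the 2 GOF lines against WT and LOF together (vertical axis, bars give the SE) for the genes of the MHC region, by their order along chromosome 6 (horizontal axis). The 6 presentation genes of the region lie between -0.64 for HLA-B and -0.15 for HLA-E, and the median of the other 107 genes is -0.01.

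Over the 12 samples the genes whose log2 CPM ran most like HLA-B were ARFGEF3, CDYL2 and ILDR2, with Pearson's r of 0.981, 0.979 and 0.978 among 12040 genes. For HLA-C they were RASSF5, IL4R and PTPRU at 0.953, 0.946 and 0.944, and for TAP1 B4GALNT4, COLEC12 and NPTX2 at 0.962, 0.958 and 0.954. For TAP2 they were ABCB1, NID2 and SPON1 at 0.980, 0.973 and 0.973, and for CD1D DACT1, GUCY1A2 and GHR at 0.963, 0.958 and 0.954. Among the 9 genes, HLA-B ran with HLA-C at 0.913, with CD1D at 0.910, with TAP2 at 0.904 and with TAP1 at 0.892. With B2M it ran at 0.245. These values are descriptions over samples that share the split between the GOF lines and the rest.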

How the data were processed

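RNA-Seq was performed by the study on polyadenylated RNA in stranded libraries. Per the labels' processing notes and the study's methods, reads were trimmed with Trim Galore 0.6.5, aligned to GRCh38 with STAR 2.7.9a, quantified with Salmon 1.2.0 against Gencode transcripts and tested with edgeR 3.16. The deposited file holds the authors' raw counts by gene symbol, as whole numbers and without normalization. The step from Salmon to these counts is not given in the sources used here.

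Of 14438 genes, 175 were at 0 in every replicate of A677G or LOF and were left out. The counts of the other 14263 were fitted in R 4.3.3 with edgeR 4.0.16 (TMM, quasi-likelihood test, 1 coefficient per line, all 12 samples). P-values were adjusted over all genes tested (Benjamini-Hochberg), and an adjusted p under 0.05 is a call. SE and 95% intervals derive from the fit. Alternatives were edgeR's exact test (the study's own choice), DESeq2 1.42.0, limma 3.58.1 (voom), other scalings and filters, a replicate block, a GC correction, the compared lines alone and each replicate left out. CPM are scaled by TMM, with a prior count of 2 for their log2 values. The fits were tested on simulated data.

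Symbols were matched to GENCODE for positions and lengths (13272 by name, 809 through a synonym, 357 without a match). The 9 genes, the gene lists and the tests were chosen with earlier results of these data known. Beside the 9 genes, the text names listed genes called against WT (at most 5 per list) and the 3 genes most like each called member among genes averaging a log2 CPM of 1 or more, and it says where a gene was chosen otherwise. Some genes of the lists are not reported here. The other measurements of the study were not analysed here. Replicates are called biological by the study, and p-values cover the spread between these samples of 1 line each.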

Additional observations from a re-analysis of the deposited data

How the results depend on the processing

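HLA-B, TAP1 and TAP2 were called in both GOF lines, against WT and against LOF, under every alternative run. So was HLA-C in Y641F. Leaving out 1 sample at a time gave 5 to 7 of the 9 genes called in Y641F against WT, 3 to 6 in A677G against WT (3 without replicate 2 of WT), 5 to 7 in Y641F against LOF, 4 to 8 in A677G against LOF (4 without replicate 1 of LOF) and 6 to 7 for the GOF lines together, and 0 between LOF and WT and between the GOF lines. The calls among all 14263 genes moved over the same fits. Against WT they ran from 703 to 1232 in Y641F and from 825 to 1457 in A677G. Against LOF they ran from 821 to 1379 and from 1049 to 1720, and for the GOF lines together from 1856 to 2550. No direction of a called gene turned. HLA-E in Y641F against LOF was also lost with DESeq2, with library totals and with only the compared lines in the fit, and TAPBP in the GOF lines together with library totals. B2M in A677G against LOF was called in 4 of 11 alternatives. With at least 10 counts in every sample NLRC5 was not tested. The exact test and the fit of only the compared lines give no value for the GOF lines together.

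Over all genes, the count between LOF and WT was 43, and 76 with the exact test, 99 with limma voom, 86 with only the compared lines, 169 with the genes at 0 kept and 11 to 65 with 1 sample left out. Between the GOF lines it was 12, and 23 with the exact test, 19 with DESeq2, 178 with the genes at 0 kept, 19 with the GC trend removed and the replicate block, and 8 to 57 with 1 sample left out. In Y641F it was 1095 against WT, and 703 without replicate 2 of WT, and 1272 against LOF, and 821 without replicate 1 of LOF. With upper-quartile factors 76.4% of the calls for the GOF lines together were lower, against 65.3%. Of the calls between LOF and WT 53.5% were lower, and 64.5% with library totals, 82.2% with the genes at 0 kept and 35.3% to 61.1% with 1 sample left out, under 50% without replicate 1 or 2 of WT or of LOF. The causes were not tested.

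Samples with the same replicate number did not deviate together (correlations of -0.147 to 0.171 over 18 pairs, against -0.153 to 0.149 over 36 pairs with different numbers). With the replicate block, 5 of 9 genes were called in each GOF line against WT, 6 and 7 against LOF and 7 for the GOF lines together, as without the block, and 40 genes in all were called between LOF and WT and 16 between the GOF lines. Among all genes the block gave 1108 calls in Y641F and 1238 in A677G against WT. It gave 1292 and 1470 against LOF, and 2265 for the GOF lines together. Depth limits NLRC5 and CD1D.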

Other observations

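HFE, a class I relative that regulates iron uptake, was listed at 0 in all 3 samples of A677G and of LOF, and at 11 to 14 counts in WT and 16 to 23 in Y641F. PAX2, a kidney transcription factor, was listed at 0 in the A677G samples, and at 12 to 16 counts in WT, 16 to 25 in Y641F and 13 to 18 in LOF. Both belong to the 175 genes left out of the tests.

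Genes outside the naming rule, chosen after their values were seen, were also called when the GOF lines were pooled against WT and LOF. HLA-F, a non-classical heavy chain, fell by 0.58 on the log2 scale (SE 0.115, edgeR quasi-likelihood test, adjusted p = 2.91e-04). RAET1G, a ligand of the activating receptor NKG2D, fell by 0.80 (SE 0.271, edgeR adjusted p = 0.0374). JAK1, a kinase of interferon signalling, fell by 0.13 (SE 0.0292, edgeR adjusted p = 0.00182).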
